A study of Rattus norvegicus with 8 samples.

Results

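The genes described here are 6 transcription factor genes of the AP-1 and immediate early class: Fos, Jun, Fosl1, Egr1, Atf3 and Myc. They were chosen as a list of 6 Ensembl gene IDs with their symbols, and all probes of each ID were taken. The list covers 6 of the 19752 Ensembl IDs on the array and 12 of their 34585 probes, 2 per gene. Wounded samples are skin of Long-Evans rat pups that received a 3-mm cut in the back on day 3 after birth, collected at the cut 36 h later (4 arrays). Control samples are back skin from the same site of pups that had not been wounded (4 arrays). No drug or genetic change is recorded for either group, and an age at collection was recorded here only through the wounded protocol. Nothing in the labels ties a sample to an animal of its own, and the p-values therefore cover the spread among these 8 samples, part of which may be technical.

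AP-1 is a dimer of basic leucine zipper proteins, usually a Fos-family with a Jun-family subunit, that binds DNA at sites known as TPA response elements. Fos, Jun, Egr1, Atf3 and Myc are classed as immediate early genes because growth factors, injury or stress switch on their transcription before any new protein has to be made, and most of these transcripts are short-lived. Fosl1 usually follows with a delay, since Fos and Jun proteins can act on its gene. In skin, AP-1 proteins are known for roles in keratinocyte proliferation, differentiation and movement at wound edges.

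Regulatory sequence is shown for the 2 members held in the promoter table used, 1 of which passed the test between the groups (Fosl1) and 1 of which did not (Egr1). The sequences are from RefSeq on the GRCr8 build and run from 250 bases before to 50 bases after the gene's start. Capitals mark the matches found.
Fosl1, chr1:212183635-212183934, plus strand: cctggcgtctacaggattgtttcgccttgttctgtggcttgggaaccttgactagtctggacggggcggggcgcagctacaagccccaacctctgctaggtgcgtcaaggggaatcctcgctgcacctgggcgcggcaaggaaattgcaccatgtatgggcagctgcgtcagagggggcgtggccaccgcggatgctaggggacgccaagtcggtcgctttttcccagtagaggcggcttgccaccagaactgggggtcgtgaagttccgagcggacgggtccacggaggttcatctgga
Egr1, chr18:26736828-26737127, plus strand: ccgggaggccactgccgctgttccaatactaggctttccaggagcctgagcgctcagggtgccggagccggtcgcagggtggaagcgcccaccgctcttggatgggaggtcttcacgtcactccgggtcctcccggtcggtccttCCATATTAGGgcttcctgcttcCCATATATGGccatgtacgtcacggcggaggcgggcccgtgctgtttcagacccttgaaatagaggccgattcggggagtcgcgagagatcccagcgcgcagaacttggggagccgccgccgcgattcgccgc
Both strands were searched for the AP-1 site TGANTCA, the cyclic AMP response element TGACGTCA, the Egr1 site GCGNGGGCG, the E-box CACGTG bound by Myc with its partner Max, and the CArG box bound by serum response factor. The Egr1 window held 2 CArG boxes, which began 105 and 83 bases before the start. Of the 33469 promoters in the table, 1.64% held a CArG box. Neither window held the other 4 letter strings, and the Fosl1 window held no CArG box. Among all promoters 7.33% held the AP-1 string, 1.83% the cyclic AMP string, 4.98% the Egr1 string and 6.42% the E-box. A match is a description of the letters and not of binding.

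At 36 h after the cut, 2 of the 6 genes had passed the test, both higher in wounded skin: the AP-1 subunit gene Fosl1 and the stress-response gene Atf3. By group means on the offset scale used here, Fosl1 was 1.85-fold higher and Atf3 1.39-fold higher. Atf3 was found on 0 of 4 control arrays, so its size is not read as measured. Fos, Jun, Egr1 and Myc did not pass, and 0 of the 6 genes passed as lower (limma with Benjamini-Hochberg adjustment over 12769 features). Before adjustment, Egr1 had a log2 fold change of -0.51 (limma unadjusted p = 0.0347) and Myc one of 0.58 (limma unadjusted p = 0.0293). An unadjusted p under 0.05 was common, with 17.6% of all features lower and 12.5% higher at that level. After adjustment 8.01% of features were called higher and 9.65% lower, 17.7% in all. When arrays were scaled to 1 median instead of quantile normalized, the calls were 960 higher and 761 lower, against 1023 and 1232, and the same 2 genes passed. Because the samples are bulk skin, a change in the number of cells of a type and a change in RNA per cell cannot be told apart.

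Between 16930 and 20030 of 38948 probes were found per array by the scanner software, 43.5% to 51.4%. Control 1 and wounded 4 deviated together from their group means (r = 0.40 across features), and the title numbers of these 2 arrays lie outside a common run of the other 6. All arrays were scanned on 1 day, wounded samples at positions 5 to 8 and controls at positions 1 to 4, so scan position and group cannot be told apart. With only the 6 arrays of the run, the log2 fold change was 0.92 for Fosl1 (limma adjusted p = 0.000382) and 0.46 for Atf3 (limma adjusted p = 0.0131). In the same 6 arrays, Myc had 0.40 and Jun -0.51, neither past the threshold.

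**Figure D1:**
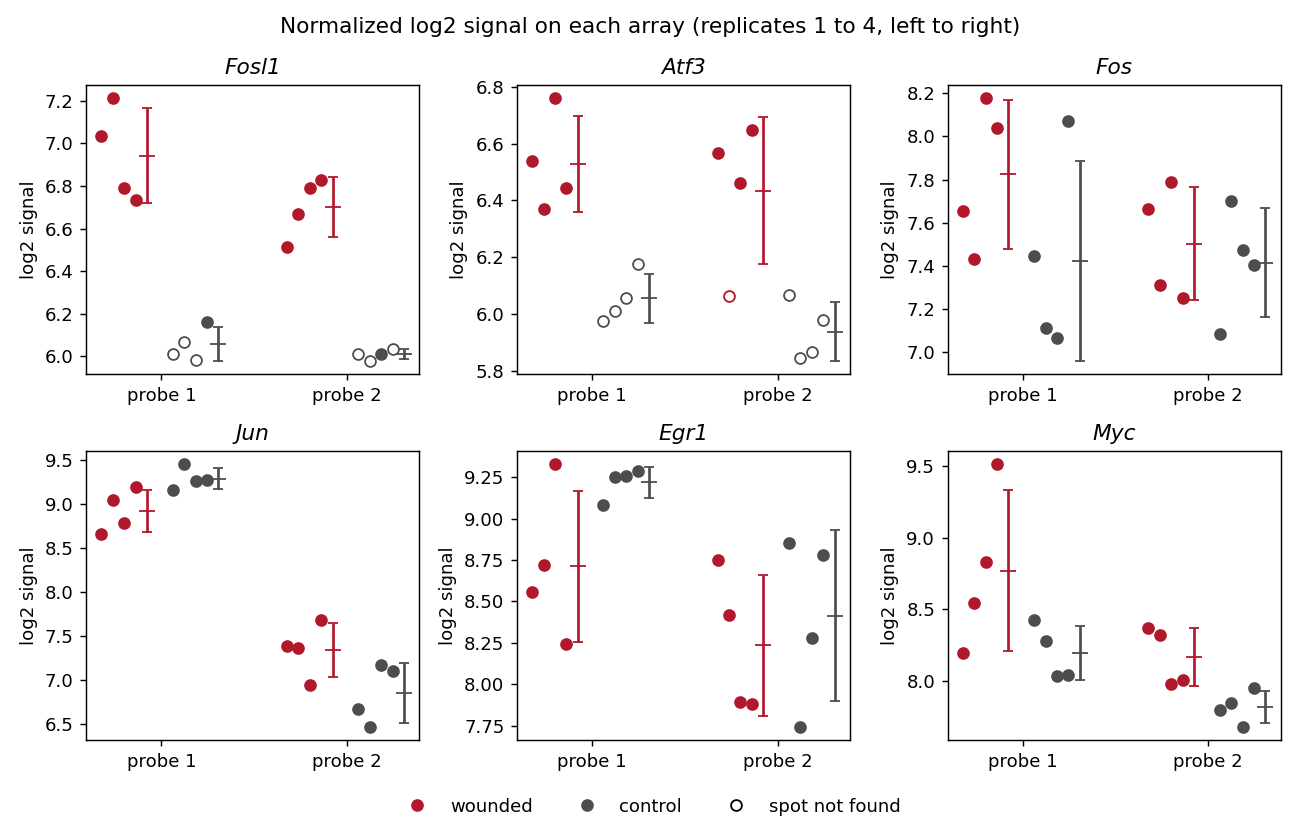
Normalized log2 signal of both probes of each gene on the 4 wounded and 4 control arrays, with mean and SD beside the points. Open points are spots that the scanner software did not find. The vertical scale differs between panels. Fosl1 on both probes, Atf3 on probe 1 and Myc on probe 2 have wounded points wholly above the control points.

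Fosl1 (ENSRNOG00000020552) encodes Fra-1, a Fos-family AP-1 subunit that lacks the strong activation domain of Fos. Its brighter probe, called probe 1, had log2 signals of 7.03, 7.21, 6.79 and 6.74 in wounded samples 1 to 4, against 6.01, 6.07, 5.98 and 6.16 in controls 1 to 4. All wounded values lay above all control values, and the gap of 0.57 between the groups was wider than the range of either group. The mean was 6.94 ± 0.22 in wounded and 6.06 ± 0.079 in control skin (SD, n = 4 each). The log2 fold change was 0.89 ± 0.12 (SE), with a 95% interval of 0.64 to 1.13 and a limma adjusted p of 2.19e-05. Of all features, 96.0% had a lower log2 fold change.

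The other Fosl1 probe gave log2 signals of 6.51, 6.67, 6.79 and 6.83 in wounded samples and 6.01, 5.98, 6.01 and 6.03 in controls. Again the groups did not overlap, and the controls were nearly level on the offset scale. In the authors' deposited log2 values these controls were 2.67, 3.15, 3.1 and 3.21. Its log2 fold change was 0.69 ± 0.094 (SE), with a limma adjusted p of 3.69e-05 over 19444 probes, of which 16.6% were called. The order of the wounded arrays differed between the probes: wounded 2 was highest on probe 1 and wounded 4 on probe 2. The changes of the 2 probes differed by 0.19 ± 0.17 (SE, 2-sided exact permutation p = 0.40).

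Fosl1 spots were dim, and the size of the change follows the background treatment. On probe 1 the median pixel stood 85, 107, 45 and 45 units over the local background in wounded samples, against 8, 9, 7 and 18 in controls, with a background of 43 to 46 units. On probe 2 these net intensities were 40, 53, 45 and 52 in wounded samples and 8, 6, 8 and 11 in controls. Each probe was found on 4 of 4 wounded arrays and 1 of 4 control arrays, control 4 for probe 1 and control 3 for probe 2. Control signals were thus close to the limit of detection. The offset of 50 added to every spot draws such ratios toward 1. With an offset of 10 the log2 fold change was 1.64, or 3.12-fold, and with the background subtracted it was 2.77, or 6.83-fold. In the authors' deposited log2 table, probe 1 had 6.22, 6.49, 5.72 and 5.62 in wounded samples and 2.67, 3.74, 2.91 and 3.92 in controls, a difference of 2.70.

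**Figure D2:**
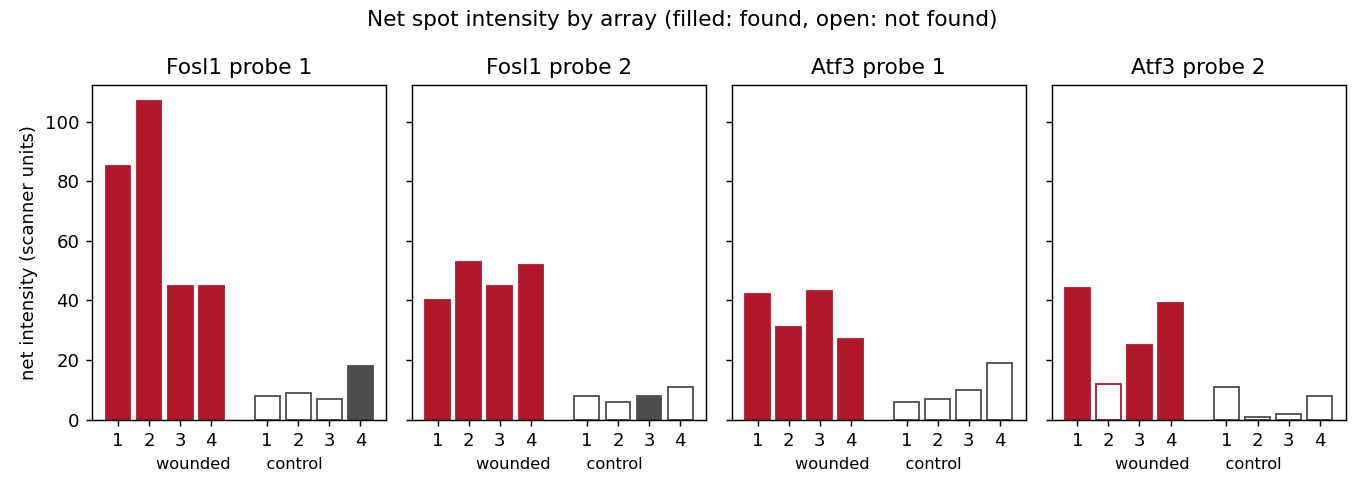
Median pixel intensity minus local background, in scanner units on a linear axis from 0, for both probes of Fosl1 and Atf3 on each wounded and control array. Filled bars are spots found by the software and open bars spots not found. The wounded bars of Fosl1 lie between 40 and 107 units and its control bars between 6 and 18.

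Atf3 (ENSRNOG00000003745) encodes a basic leucine zipper factor of the ATF/CREB family that can pair with Jun proteins and is induced by many kinds of cell stress. Probe 1 had log2 signals of 6.54, 6.37, 6.76 and 6.44 in wounded samples and 5.97, 6.01, 6.06 and 6.18 in controls. The groups did not overlap, and control 4 came closest to the wounded range. Means were 6.53 ± 0.17 in wounded and 6.05 ± 0.088 in control skin (SD, n = 4 each). Because the probe was found on 4 of 4 wounded and 0 of 4 control arrays, the rise is a bound, at least 1.39-fold (log2 0.47 ± 0.096 SE, limma adjusted p = 0.00169). That bound sets the wounded mean against the control mean, in which no array counts for less than its dimmest found probe. Net intensities were 42, 31, 43 and 27 units in wounded samples and 6, 7, 10 and 19 in controls.

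The second Atf3 probe was found on 3 of 4 wounded arrays and 0 of 4 control arrays, 1 array short of the filter. Its log2 signals were 6.57, 6.06, 6.46 and 6.65 in wounded samples and 6.07, 5.84, 5.86 and 5.98 in controls. Wounded 2, where the spot was not found, was level with control 1, and the other wounded values were higher than all controls. By group means, wounded skin was 1.41-fold higher on this probe, again an estimate that rests on control spots not found. With no filter, over 38948 probes, its limma adjusted p was 0.00295.

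Both genes that passed the test entered it through the wounded arrays, since a probe had to be found on at least 4 of 8 arrays. A gene let in that way had to be brighter in wounded skin, so their 2 calls out of 6 are not read against the background share. Without any filter, 9.53% of 24115 features were called, Fosl1 had an adjusted p of 1.49e-05 and Atf3 one of 0.00232 in limma. The other 4 genes were found by both probes on all 8 arrays.

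Fos (ENSRNOG00000008015) encodes the founding Fos-family subunit, which binds DNA only with a partner such as Jun. Probe 1 had log2 signals of 7.65, 7.43, 8.18 and 8.04 in wounded samples and 7.44, 7.11, 7.07 and 8.07 in controls. Control 4 lay within the wounded range, and 3 of 4 controls lay below 3 of 4 wounded samples. Wounded minus control was 0.40 ± 0.23 (log2, SE), with a 95% interval of -0.086 to 0.89 and a limma adjusted p of 0.261. The size for Fos depended on the setting: it was 0.15 with the mean pixel, 0.17 with array weights, 0.24 with the mean of both probes, 0.65 with the authors' deposited log2 values and 0.62 without control 4, and it passed the test in none of these. Probe 2 had 7.66, 7.31, 7.79 and 7.25 in wounded samples and 7.08, 7.70, 7.47 and 7.40 in controls, a log2 fold change of 0.088 ± 0.19 (SE). On that probe the groups were interleaved. The intervals of both probes reach below 0 and allow a rise of up to 0.89 on probe 1 and 0.49 on probe 2.

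Jun (ENSRNOG00000026293) encodes the partner of Fos in the classical AP-1 dimer and can also pair with itself. Its 2 probes pointed in opposite directions. Probe 1 had log2 signals of 8.66, 9.04, 8.79 and 9.20 in wounded samples and 9.17, 9.46, 9.27 and 9.28 in controls. Wounded 4 overlapped the control range and the other 3 wounded samples lay below it. Wounded minus control was -0.37 ± 0.19 (log2, SE), with a 95% interval of -0.78 to 0.038 and a limma adjusted p of 0.212. With arrays scaled to 1 median it was -0.24.

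The dimmer Jun probe had log2 signals of 7.38, 7.36, 6.94 and 7.69 in wounded samples and 6.67, 6.46, 7.17 and 7.10 in controls. Here 3 of 4 wounded samples were above all controls and wounded 3 was not. This gave a log2 fold change of 0.49 ± 0.20 (SE), with a limma adjusted p of 0.0975 over the probes. Within an array, the signal of probe 1 minus that of probe 2 was 1.28 to 1.85 in wounded samples and 2.10 to 3.00 in controls, with no overlap. This difference of -0.86 ± 0.24 (SE) had an unadjusted p of 0.0286, the smallest that the 70 assignments of a 2-sided exact permutation test can give, and an adjusted p of 0.143 over the 5 genes with 2 tested probes. Neither probe alone passed the test. The mean of both probes gave a log2 fold change of 0.061, so the sign for Jun depends on how its probes are combined.

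**Figure D3:**
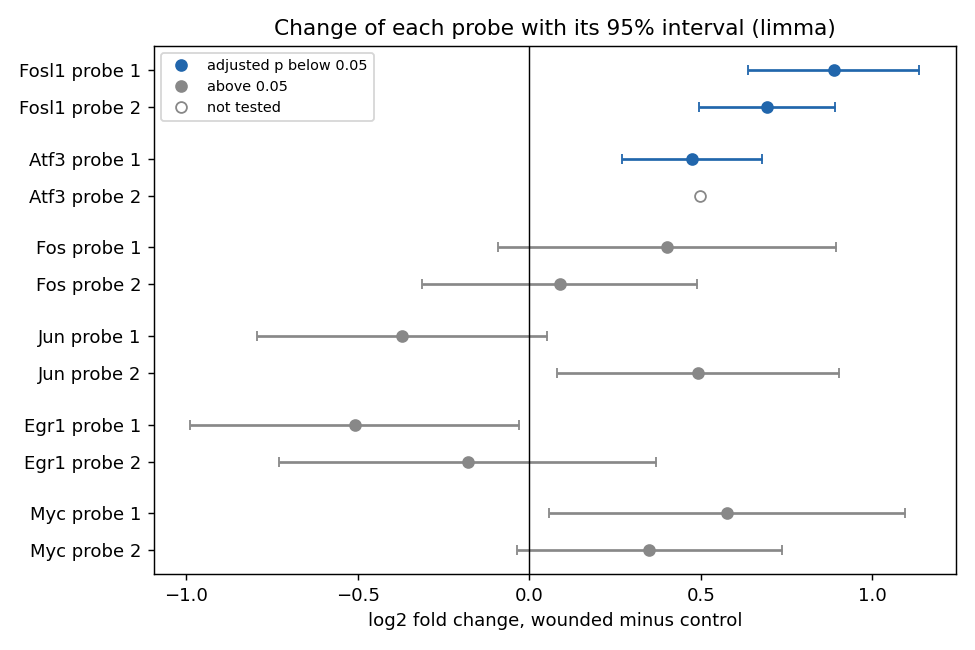
Log2 fold change of each probe, wounded minus control, with the 95% interval of the limma fit over all probes. Both Fosl1 probes and probe 1 of Atf3 passed the test. The 2 Jun probes lie on opposite sides of 0, at -0.37 and 0.49.

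Egr1 (ENSRNOG00000019422) encodes a zinc finger factor that binds GC-rich promoters and is one of the fastest genes to respond to serum and injury. Probe 1 had log2 signals of 8.56, 8.72, 9.33 and 8.24 in wounded samples and 9.08, 9.25, 9.26 and 9.29 in controls. The controls were close together, whereas the wounded samples ranged widely: 3 lay below all controls, and wounded 3 lay above them. The SD was 0.46 in wounded and 0.094 in control skin (n = 4 each). This gave a log2 fold change of -0.51 ± 0.22 (SE), with a 95% interval of -0.98 to -0.041 and a limma adjusted p of 0.130. Without wounded 3 the log2 fold change was -0.71 and passed the test (limma adjusted p = 0.0244).

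The second Egr1 probe gave another picture of the same arrays. Its log2 signals were 8.75, 8.42, 7.89 and 7.88 in wounded samples and 8.85, 7.74, 8.28 and 8.78 in controls. Wounded 3, the highest array on probe 1, was among the lowest on probe 2, and the controls spread from 7.74 to 8.85. The log2 fold change was -0.18 ± 0.26 (SE), and the groups were interleaved. Neither a fall nor the lack of one was shown for Egr1.

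Myc (ENSRNOG00000004500) encodes a basic helix-loop-helix factor that pairs with Max and drives cell growth and division. Probe 1 had log2 signals of 8.19, 8.54, 8.83 and 9.52 in wounded samples and 8.42, 8.28, 8.03 and 8.04 in controls. Wounded 1 lay within the control range and wounded 4 stood highest. The log2 fold change was 0.58 ± 0.24 (SE), with a 95% interval of 0.065 to 1.09 and a limma adjusted p of 0.116. Single arrays moved it by more than 1.5 times or across the threshold: it was 0.33 without wounded 4 (limma adjusted p = 0.328) and 0.77 without wounded 1 (limma adjusted p = 0.0378).

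The dimmer Myc probe had log2 signals of 8.36, 8.32, 7.98 and 8.01 in wounded samples and 7.80, 7.85, 7.68 and 7.95 in controls. All 4 wounded values were above all controls, though wounded 3 exceeded control 4 by only 0.028. Wounded 1, lowest on probe 1, was highest here. The log2 fold change was 0.35 ± 0.18 (SE), with a limma adjusted p of 0.221 over the probes. The mean of both probes gave 0.46 and passed the test (limma adjusted p = 0.0459), as did a fit with the 2 arrays outside the common run as 1 block (limma adjusted p = 0.0446). The Myc call thus depends on these choices, while the direction was the same in all 23 alternatives.

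By their main probes, the groups did not overlap for Fosl1 and Atf3 and overlapped for the other 4 genes. Of all features, 21% had groups that did not overlap, and since Fosl1 and Atf3 were let in through the wounded arrays, nothing is read from that comparison.

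**Figure D4:**
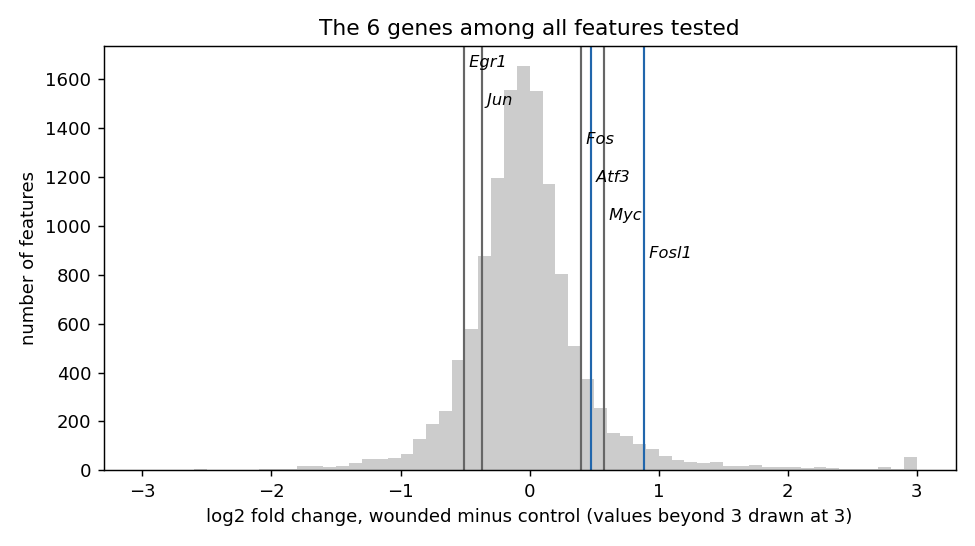
Histogram of the log2 fold change, wounded minus control, of all 12769 features tested, with lines at the 6 genes (blue where the test was passed, grey otherwise). Fosl1 stands at 0.89 and Egr1 at -0.51, with 96.0% and 10.2% of features below them.

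Whether the genes changed unequally was tested on the difference of 2 genes within each array, for all 15 pairs (2-sided exact permutation test, Benjamini-Hochberg over the pairs). The smallest p that 4 against 4 arrays can give is 0.0286, and after adjustment over 15 pairs it passes only if at least 9 pairs reach it. The number of pairs past the threshold could therefore only be 0 or at least 9. With the offset of 50 it was 0, since 6 pairs stood at that smallest p (exact permutation adjusted p = 0.0714). These 6 pairs set Fosl1, Atf3 or Myc against Jun or Egr1. At that p the wounded and control differences cannot overlap, so their lack of overlap adds nothing to it. Of the 6 pairs, 4 hold Fosl1 or Atf3, which were found on under 2 control arrays and entered the test through the wounded arrays.

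The change of Fosl1 minus that of Egr1 was 1.40 ± 0.26, and the change of Jun minus that of Fosl1 was -1.26 ± 0.19 (log2, SE). Fosl1 was found on 1 of 4 control arrays, and both sizes follow the background treatment and the probe choice. Over the alternatives run, they went from 1.13 to 3.36 and from -3.19 to -0.73. The Jun values rest on 1 of 2 probes that point in opposite directions. With the mean of both probes, the change of Jun minus that of Fosl1 was -0.73, and Jun minus Myc was -0.40 in place of -0.95. Fos and Fosl1, members of the same family, differed by -0.49 ± 0.35 (exact permutation p = 0.229), by -0.25 without wounded 2 and by -2.18 with the background subtracted. Differences from Atf3 are not given here, because its control spots were not found and its rise is only a bound.

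With the background subtracted, 9 of the 15 pairs reached the smallest p and so passed together (exact permutation adjusted p = 0.0476). They were the 6 above and Fosl1 against Fos, Fosl1 against Myc and Atf3 against Fos. Of these 9 pairs, 7 hold Fosl1 or Atf3, whose control spots were mostly not found. The sizes of those 7 differences rest on control values near the background and are not read as measured. The other 2 were Jun against Myc and Egr1 against Myc, at the smallest p in both settings. With the mean pixel, Egr1 against Myc was not at the smallest p (exact permutation adjusted p = 0.107). Jun against Myc rests on the brighter Jun probe, while the dimmer one had a log2 fold change of 0.49. Whether the rise of Fosl1 was larger than any change of Fos or Myc was not settled by these arrays.

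**Figure D5:**
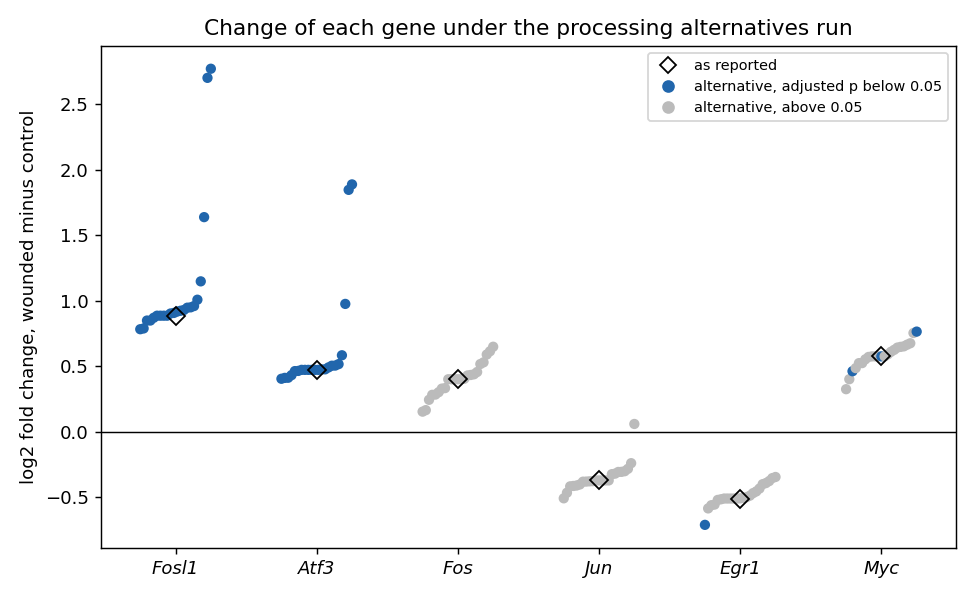
Log2 fold change, wounded minus control, of each gene as reported (diamonds) and under each of the 22 or 23 alternatives run (points, blue where the test was passed). The high points of Fosl1 (1.64 to 2.77) and Atf3 (0.98 to 1.89) are the settings that correct for the background with a small offset or none.

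Other features with a pattern close to these genes were sought among the 11352 other tested Ensembl IDs, by the root mean square difference of log2 signals centred over the 8 arrays. The closest that passed the test as higher were ENSRNOG00000016308, 0.047 from Atf3 (log2 fold change 0.51, limma adjusted p = 0.00424), and ENSRNOG00000006579, 0.078 from Atf3 (0.43, limma adjusted p = 0.00297). The closest that passed as lower was ENSRNOG00000007242, 0.085 from Jun (-0.49, limma adjusted p = 0.04998). These features were picked for their likeness to a gene on the same arrays, so their changes and adjusted p lend it no support. The files give no symbols for these IDs. For the same reason the 82 genes of the 7 lists drawn up around the 6 (other AP-1 and bZIP factors, other immediate early genes, Myc partners, Egr1 corepressors, and markers of skin, leukocytes and muscle) could not be counted, and the labelled tissue was not checked against its markers.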

How the data were processed

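Per the labels' protocols, cRNA carrying biotin was made from total RNA of 8 skin samples and put on Rat MI-Ready arrays in 1 colour. Per the file headers, spots were read at 635 nm with GenePix Pro without normalization, and the deposited scanner files hold the linear intensity of each spot and of its background. A second deposited table holds log2 values by the authors and equalled log2 of the median pixel minus background plus 1 constant per array for 99.9% to 100% of the probes compared (within 0.011). Its column medians were 6.98 to 7.06, and how its probes were chosen is not stated in the labels.

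With limma 3.58.1 in R 4.3.3, the median pixel was corrected by normexp with an offset of 50. Then 1240 of 40320 spots without a gene probe were left out on every array. Bad spots were left out on the array concerned, 65 over the 8 arrays and 55 of these on wounded 1. The log2 signals were brought to equal quantiles, and repeated spots of a probe were averaged. Probes found on at least 4 of 8 arrays were kept (19444 of 38948), and the brightest probe stood for each Ensembl ID, giving 12769 features. The groups were compared with a 2-sided limma test (variance trend, Benjamini-Hochberg over all features, threshold 0.05). For a gene not found on any array of a group, values there were raised to at least the dimmest found probe of the array. This left the Atf3 change as it was. The number of arrays limits the precision. The fit was tested on simulated data.

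The 6 genes and the gene lists were chosen with earlier results of these data known. All 6 genes are named, with every probe, and similar features by closeness of pattern. Of 49154 array IDs and names, 0 occurred in the reference gene table (GRCr8, 47357 rows, 0 with an Ensembl ID). The test of unequal probes was added after the data were seen. Alternatives covered background, normalization, filter, probe choice, the authors' values, variance model, blocks and left-out samples.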

Additional observations from a re-analysis of the deposited data

Results flagged for a closer look

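Among the 24 sets of 4 signals (12 probes in each group), 1 held a value far from the other 3 of its group, where chance sets apart about 1 in 20. On probe 1 of Egr1, control 1 had a log2 signal of 9.08, against 9.25 to 9.29 in the other controls. All 4 controls lay above wounded 1, 2 and 4, so leaving out control 1 moved the log2 fold change only to -0.55 (limma adjusted p = 0.125).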

How the results depend on the processing

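Of 873 values over 23 alternatives, 832 had the reported direction and call or a count within 1.5 times that reported, 17 passed the threshold only under the alternative, 17 changed sign and 7 counts moved further. Fosl1 and Atf3 passed in all 22 alternatives that tested them, with log2 fold changes of 0.78 to 2.77 and 0.41 to 1.89 and adjusted p up to 0.00126 and 0.0255, both without a variance trend. Only probes found on all 8 arrays left both untested, so 0 genes and 0 of their probes were then called higher. Leaving out 1 sample in turn gave 0.78 to 0.96 for Fosl1, 0.41 to 0.52 for Atf3, 0.28 to 0.62 for Fos, -0.46 to -0.28 for Jun, -0.71 to -0.35 for Egr1 and 0.33 to 0.77 for Myc. It gave 2 to 3 genes higher, 0 to 1 lower and 3 to 5 probes past the threshold, 5 without wounded 3. Egr1 passed without wounded 3, and Myc passed without wounded 1, with the mean of probes (0.46) and with the 2 outlying arrays as 1 block (0.58). The mean of probes turned Jun to 0.061. Over all features, probes found on all 8 arrays gave 625 higher (fewer features tested), median scaling gave 761 lower, and leaving out 1 sample gave 843 to 1055 higher and 882 to 1324 lower. Pairs past the threshold can only number 0 or at least 9 of 15 with 4 against 4 arrays: 6 stood at the smallest p with the offset of 50, which gave 0, and 9 with the background subtracted, which gave 9. Leaving out any 1 sample gave 0. With 3 against 3 arrays the smallest p is 0.10, so no pair could pass there.

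Differences that were small and not called changed sign; those from Atf3 rest on control spots that were not found. Atf3 minus Myc was 0.33 with an offset of 10, 1.21 with the background subtracted, 0.010 with the mean of probes, 1.09 with the authors' values and 0.062 with the 6 arrays of the run. In those 6 arrays Jun minus Egr1 was -0.11 and the dimmer Egr1 probe 0.084. On leaving out 1 sample, Atf3 minus Myc ranged from -0.30 to 0.18, Fos minus Atf3 from -0.19 to 0.11, Fos minus Myc from -0.31 to 0.090, Jun minus Egr1 from -0.11 to 0.39, the dimmer Fos probe from -0.022 to 0.19 and Myc probe 1 minus probe 2 from -0.077 to 0.48. The cause was not tested.

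In a fit with a replicate block for the sample number, Fosl1 kept 0.89 (limma adjusted p = 1.46e-05) and Atf3 0.47 (limma adjusted p = 0.00179), and no call of the 6 genes changed. The deviations of samples with the same number had r of -0.28 to -0.01, and the number picked out the best-correlated partner for 0 of 8 samples. Signals near the background limit Fosl1 and Atf3.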
